A study of Mus musculus with 8 samples.

Results

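Oct4BiD and Sox2BiD are the reprogramming factors OCT4 and SOX2, each joined to the same domain of SS18, and their comparison asks how far the chromatin sites of the 2 fused factors coincided. All peaks of the libraries titled Oct4BiD (93978 peaks) and Sox2BiD (120594 peaks) were taken, which is 214572 of the 661009 peaks in the 8 lists of the series. Peaks of the pair that overlapped by at least 1 bp were merged, which gave 186760 regions, against 306466 when all 8 lists were merged. Of the 186760 regions, 26666 held peaks of both libraries and are called shared, 66844 held peaks of Oct4BiD only and 93250 held peaks of Sox2BiD only. The same was done with the 20000 peaks of the highest score in each list. The score is 10 times the negative log10 of the p-value that the peak caller gave a peak.

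Fibroblasts of mouse embryos (MEFs) were taken at day 3 after the start of reprogramming. They came from OG2 mice, which carry a GFP reporter driven by the Oct4 gene, and the factors were delivered by retrovirus. Binding was mapped by CUT&Tag with an antibody against Flag, the tag on the delivered factor, in which the antibody brings the Tn5 transposase to the factor so that the DNA beside it is cut, tagged and sequenced. The domain, BiD, lies N-terminal of the factor in the fusion and is known to contact BRG1, which drives the BAF complexes that move nucleosomes. Each of the 2 groups is 1 library. Native Oct4, native Sox2, native Nanog, native Nr5a2, NanogBiD and Nr5a2BiD, again 1 library each, were used to see where the regions recur. The titles do not say what else was delivered with a factor. No control library is named, so peaks that any tethered transposase would give in open chromatin cannot be told apart from binding sites. No test between the 2 libraries was possible. Intervals below are 95% intervals for counting error over peaks, and the spread between cultures is not in them.

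OCT4, encoded by Pou5f1, is a POU factor that binds the octamer through a POU-specific domain and a homeodomain, and SOX2 is an HMG-box factor that binds and bends a short SOX element in the minor groove. In pluripotent cells they are known to bind side by side on a joint element in enhancers of Pou5f1, Sox2, Nanog, Fgf4 and Utf1. In fibroblasts, distal open chromatin is known for sites of AP-1, TEAD and RUNX factors.

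The DNA under summits of each class is shown first, since it carries the clearest difference between the libraries. Each sequence is the summit base and 50 bases to either side in mm10, 5′ to 3′ on the + strand, read from RefSeq GRCm38.p6. They are, among the chromosomes searched, the highest-ranking regions of their class that hold the named element, lie over 2 kb from any annotated start site and overlap no exon, and capitals mark the element. The Oct4BiD only regions with an octamer (ATGCAAAT on either strand) were chr12:8620224-8620324, 21.2 kb from the start site of Slc7a15, a gene of an amino acid transporter family, and chr11:112839924-112840024, 57.8 kb from Sox9, a SOX factor of cartilage and testis. An Oct4BiD only region with GCATATGC, the core of the palindromic MORE element on which POU factors bind as dimers, was chr16:85955565-85955665, 53.8 kb from Adamts5, a protease of cartilage matrix. A Sox2BiD only region with a SOX element (CCATTGTT on either strand) was chr3:151351933-151352033, 85.9 kb from Adgrl4, an adhesion receptor of endothelium. The next was chr1:128472456-128472556, 55.1 kb from Dars, a cytosolic aspartyl-tRNA synthetase. Elements other than the named one are left in lower case. In the Adamts5 sequence an octamer, ATGCAAAT, overlaps the MORE core in the bases ATGC, so this region holds both POU elements. The Adgrl4 sequence also holds an AP-1 site, tgactca, which is nearer the summit than its SOX element.
Slc7a15: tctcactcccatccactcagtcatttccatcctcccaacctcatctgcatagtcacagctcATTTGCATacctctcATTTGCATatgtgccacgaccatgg
Sox9: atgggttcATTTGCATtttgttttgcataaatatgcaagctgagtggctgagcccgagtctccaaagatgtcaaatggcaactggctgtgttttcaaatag
Adamts5: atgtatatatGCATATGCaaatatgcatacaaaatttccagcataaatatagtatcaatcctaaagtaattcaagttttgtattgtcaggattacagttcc
Adgrl4: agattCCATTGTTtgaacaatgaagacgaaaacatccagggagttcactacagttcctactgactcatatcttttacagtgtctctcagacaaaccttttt
Dars: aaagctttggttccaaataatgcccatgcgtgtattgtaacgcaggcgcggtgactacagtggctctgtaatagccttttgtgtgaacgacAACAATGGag

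Shared regions with both elements within 50 bp of the Oct4BiD summit were few and ranked low. The first by the worse of the 2 ranks was chr10:19200444-19200544, 156 kb from Olig3, a neural bHLH factor, with an Oct4BiD score of 155 (rank 41559), a Sox2BiD score of 561 (rank 7107) and summits 36 bp apart. The next was chr8:11036084-11036184, 27.7 kb from Irs2, an adaptor of insulin signalling, with scores of 130 and 149 and summits 13 bp apart. The highest-ranking shared region with the joint form TTGTNATGC was chr15:90717908-90718008, 38.5 kb from Cpne8, a gene of the copine family, where the scores were 834 and 627 but the summits lay 993 bp apart. The Cpne8 sequence also holds an AP-1 element (TGAGTCA on either strand) in lower case, nearer the summit than the joint form. The highest-ranking shared region picked for an AP-1 element was chr19:20239544-20239644, 136 kb from Anxa1, an annexin. Its scores were 716 and 1103, with summits 67 bp apart.
Olig3: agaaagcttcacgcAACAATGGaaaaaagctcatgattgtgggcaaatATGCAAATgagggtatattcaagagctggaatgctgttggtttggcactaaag
Irs2: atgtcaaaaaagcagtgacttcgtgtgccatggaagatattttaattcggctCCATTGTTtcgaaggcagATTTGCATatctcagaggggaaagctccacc
Cpne8: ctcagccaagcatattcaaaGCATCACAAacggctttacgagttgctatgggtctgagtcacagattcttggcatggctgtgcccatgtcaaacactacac
Anxa1: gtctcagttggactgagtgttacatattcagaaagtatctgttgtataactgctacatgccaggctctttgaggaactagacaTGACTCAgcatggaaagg

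The libraries were first set beside each other as lists. Scores ran from 50, the threshold of the caller, to 2170 in Oct4BiD and to 1559 in Sox2BiD, with medians of 135 and 149.99. Summit heights, in tags, had medians of 19 and 21. The peaks covered 88.1 Mb and 112 Mb. Read totals were not used here, and per the study's reporting summary more read pairs were sequenced for Sox2BiD than for Oct4BiD, so the larger number of Sox2BiD peaks and the depth of that library cannot be told apart. At the fibroblast markers that were listed, 9 of 10 genes had a promoter summit of both libraries, Twist2 being the gene without one, against 2 of 17 markers of other cell types (Myh6 and Myh7, neighbouring heart myosin genes). The collagen genes Col1a1, Col1a2 and Col3a1 were among the 9. A promoter summit of both libraries was found at 45.3% of all 21938 protein-coding genes.

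Most regions belonged to 1 library. Shared regions were 14.3% of all regions (14.1% to 14.4%), Oct4BiD only regions 35.8% and Sox2BiD only regions 49.9%. By peaks, 28.9% of the Oct4BiD peaks and 22.7% of the Sox2BiD peaks lay in shared regions. Nearly all of these were simple pairs, since 25572 of the 26666 shared regions held exactly 1 peak of each library. Between the top 20000 peaks of each list, 2148 of 37851 regions were shared (5.67%, 5.44% to 5.91%), and 17852 and 17851 belonged to Oct4BiD and Sox2BiD. The top lists exclude the difference in list length, and the share was lower there.

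The low share among the top peaks had a part that was a matter of rank and a part that was not. Of the top Oct4BiD peaks, 10.7% lay on a top Sox2BiD peak, 29.4% on a lower Sox2BiD peak and 59.9% on no Sox2BiD peak at all. For the top Sox2BiD peaks the shares were 10.7%, 18.0% and 71.3%. A strong peak of 1 factor was therefore more often without any called peak of the other than with a weak one. The Sox2BiD list is the longer one, so the gap between 59.9% and 71.3% and the length of the list searched cannot be told apart. Within the shared regions, the scores of the libraries hardly rose together, with a Spearman correlation of 0.153 across 26666 regions and of 0.00498 across the 2148 regions of the top lists. Regions are not independent replicates and both lists share the threshold, so the coefficients are descriptions.

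The share of peaks found in the other list depended on their rank. Of the 1000 highest Oct4BiD peaks, 45.6% (42.5% to 48.7%) lay on a Sox2BiD peak, and of the lowest 13978 peaks 18.8%. Of the 1000 highest Sox2BiD peaks, 32.9% (29.99% to 35.9%) lay on an Oct4BiD peak, and of the lowest 20594 peaks 16.9%. The decline was steady in both lists, and the Sox2BiD values were the lower ones down to rank 80000.

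**Figure D1:**
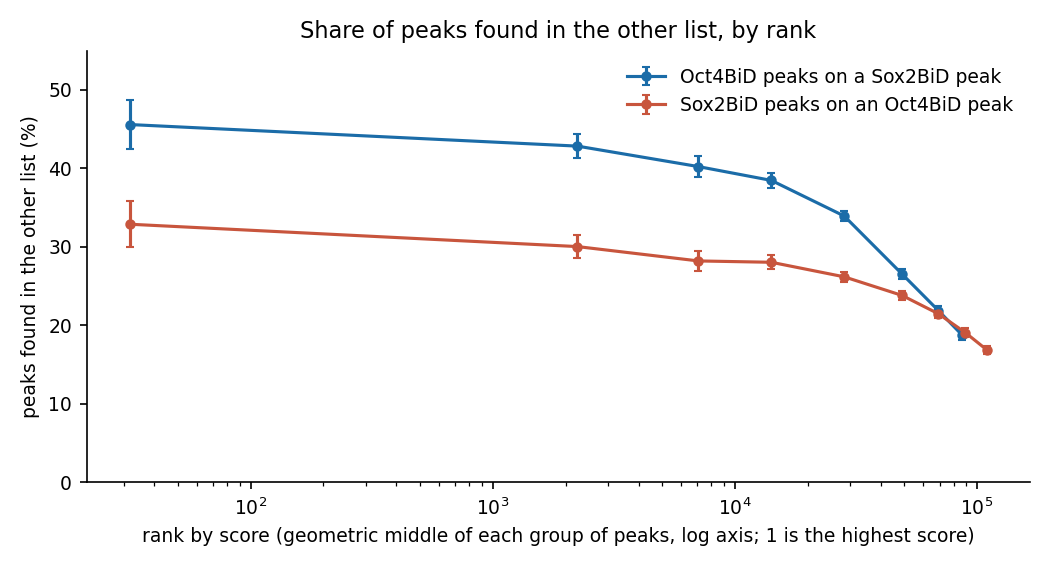
Percent of peaks that lie on a peak of the other library (vertical axis) against rank by score (log axis, 1 is the highest score). Points are groups of peaks, bars are 95% intervals for counting error, blue is Oct4BiD and red is Sox2BiD. Shares fall from 45.6% to 18.8% for Oct4BiD and from 32.9% to 16.9% for Sox2BiD.

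Where a region was not shared, the nearest summit of the other library was mostly several kb away. The median distance from an Oct4BiD only summit to the nearest Sox2BiD summit was 6046 bp, with 2.73% within 1000 bp and 14.8% within 2 kb. From a Sox2BiD only summit to the nearest Oct4BiD summit the median was 7685 bp, with 2.03% within 1000 bp and 11.5% within 2 kb. Peaks of different classes do not overlap by construction, which keeps the shares at the shortest distances low. With gaps of up to 500 bp joined, the shared percentage was 17.3 in place of 14.3.

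Each library's own element marked its own class. An octamer lay within 50 bp of the summit in 11.1% of the 66833 Oct4BiD only regions on placed chromosomes (10.9% to 11.3%), 16.6 times the share in windows of the same size 500 bp to either side (15.5 to 17.8). In the Sox2BiD only regions the share was 0.529%, or 0.848 times that of the flanks (0.763 to 0.942). The SOX element went the other way, with 3.68% of the Sox2BiD only summits (8.47 times the flanks, 7.85 to 9.15) and 0.236% of the Oct4BiD only summits (0.584 times, 0.489 to 0.697). In both directions the element of the other factor was below its own flanks. For scale, 1.74% of 32851 RefSeq promoters of 300 bases hold the octamer and 1.05% hold the SOX element.

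The ratio of octamer enrichment between Oct4BiD only and Sox2BiD only regions was 4.29 on the log2 scale (4.11 to 4.47), and that of the SOX element was -3.86 (-4.14 to -3.58). The MORE core was at 2.33% of Oct4BiD only summits, 14.1 times the flanks, and at 0.0826% of Sox2BiD only summits, 0.546 times. The octamer and the MORE core can share the bases ATGC, and so can the octamer and the joint element. Both POU elements therefore separated the classes in the same direction, and in each the element was below its flanks at Sox2BiD only summits.

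In shared regions each summit kept the element of its own factor. Within 50 bp of the Oct4BiD summit, 6.35% of 26664 shared regions held an octamer (12.0 times the flanks) and 0.341% a SOX element (0.816 times, with an interval of 0.640 to 1.04 that includes 1). Within 50 bp of the Sox2BiD summit, 1.504% held an octamer (1.65 times) and 1.95% a SOX element (5.85 times). Both elements were thus less frequent in shared than in 1-library regions at the matching summit. A POU element alone, octamer or MORE core, was found at the Oct4BiD summit in 6.92% of the 26664 shared regions. A SOX element alone was found at the Sox2BiD summit in 1.77%, both in 48 regions (0.180%), and neither in 91.1%. Exact matches to either element were rare, so the small joint count does not show that the elements avoid each other.

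The joint element did not separate shared regions from the others. TTGTNATGC, a SOX half-site followed after 1 base by the POU half-site, lay within 50 bp of 0.405% of the Oct4BiD summits in shared regions (1.65 times the flanks, 1.28 to 2.13), of 0.482% of the Oct4BiD only summits (1.957 times) and of 0.553% of the Sox2BiD only summits (2.02 times). The 3 enrichments had overlapping intervals. With the longer half-site ATGCAA, and counting within 100 bp of the summit, the spacing of 1 base after TTGT was found in 117 Sox2BiD only regions, above each of the 15 other spacings from 0 to 15 bases (57 to 94 regions) and above the mean of 42 in the flanks. In Oct4BiD only regions it was found in 92, below each of the 15 other spacings (102 to 207) but above the mean of 34 in the flanks. In shared regions it was found in 40 at the Oct4BiD summit, within the range of the others (21 to 52), with 15 in the flanks. At the Sox2BiD summit of shared regions it was found in 26, again within the range of the others (13 to 35), with 18 in the flanks. The reversed order, POU half-site first, was counted in the same way. In Sox2BiD only regions it was found in 42 at 1 base and in 54 to 109 at the other spacings. In Oct4BiD only regions these counts were 164 and 62 to 170. In shared regions they were 44 and 12 to 47 at the Oct4BiD summit, and 22 and 13 to 43 at the Sox2BiD summit.

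AP-1 was the element with the most matches at Sox2BiD summits. It lay within 50 bp of 9.39% of the Sox2BiD only summits (5.62 times the flanks, 5.40 to 5.86), of 2.94% of the Oct4BiD only summits (1.89 times), and in shared regions of 7.76% of the Sox2BiD summits and of 5.20% of the Oct4BiD summits. AP-1 is bound by FOS and JUN dimers, and its sites are typical of the open chromatin of fibroblasts. TEAD sites (ACATTCC) were at 2.64% of the Oct4BiD only and 3.19% of the Sox2BiD only summits, and RUNX sites (AACCACA) at 3.17% and 4.53%. TEAD sites were near 1.9 to 2.2 times the flanks in both classes. CTCF sites were 6.19 and 3.92 times as frequent as in the flanks, and the NANOG site GCCATTA was at 1.19 and 1.28 times. The NR5A site TCAAGGTCA was at 0.434 and 0.410 times, below the flanks in both classes.

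**Figure D2:**
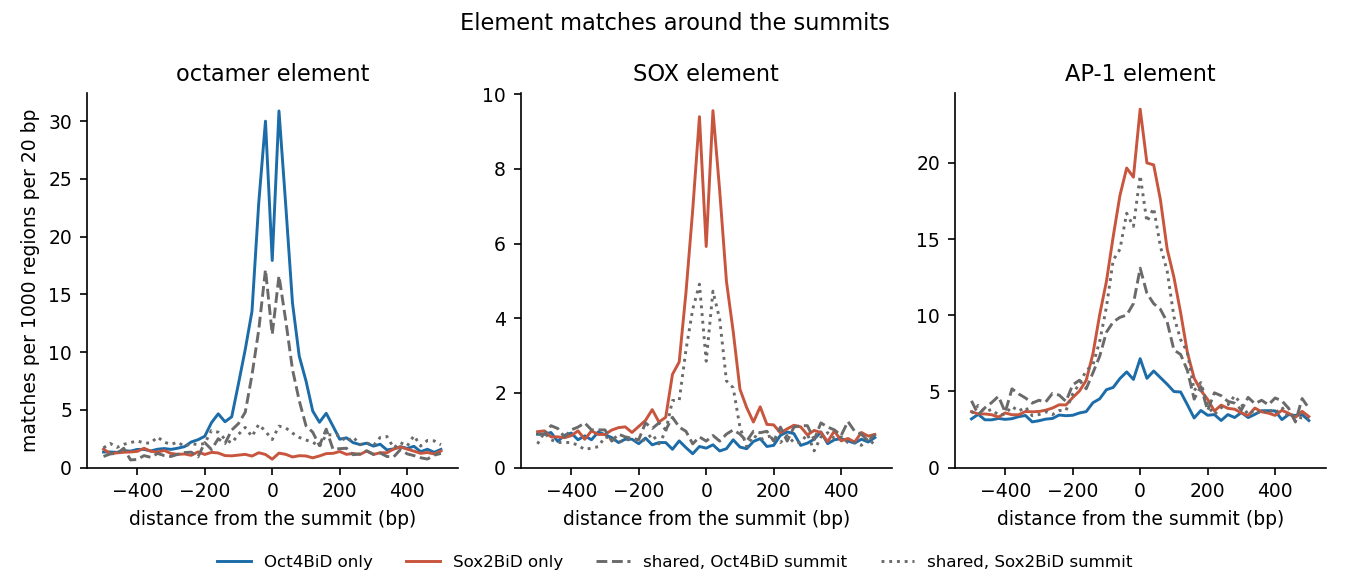
Matches to the octamer, SOX and AP-1 elements per 1000 regions in steps of 20 bp (vertical axes, each from 0 on its own scale) against distance from the summit in bp. Solid blue is Oct4BiD only, solid red Sox2BiD only, and grey lines are shared regions centred on the Oct4BiD (dashed) or Sox2BiD (dotted) summit. Octamer and SOX matches peak 20 bp to either side of the summit with a dip at 0, and AP-1 matches peak at 0.

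The position of the elements within the peaks also differed by element. In Oct4BiD only regions there were 30 and 30.9 octamers per 1000 regions in the 20 bp bins centred 20 bp left and right of the summit, but 17.9 at the summit itself. In Sox2BiD only regions the SOX element had the same shape, with 9.39 and 9.56 beside the summit and 5.92 on it. AP-1 in Sox2BiD only regions had no such dip, with 19.1, 23.5 and 19.99 per 1000 regions left of, on and right of the summit. The elements of the tagged factors were thus most frequent beside the highest point of the peak and AP-1 on it.

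The octamer share rose with the strength of a peak and was higher in peaks that the other library lacked. Of Oct4BiD peaks not found in Sox2BiD, 21.5% of those in ranks 1 to 1000 held an octamer (18.2% to 25.2%), 16.03% between ranks 5000 and 20000 and 8.92% below rank 50000. Of those found in Sox2BiD, the shares were 13.0%, 8.17% and 4.66%. At the SOX element the order was the same below rank 1000, with 4.31% against 2.71% between ranks 5000 and 20000 and 3.50% against 1.60% below rank 50000. Among the 1000 highest Sox2BiD peaks the shares of 4.02% and 4.86% had overlapping intervals.

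Shared regions lay at promoters far more often than 1-library regions. The summit was within 2 kb of an annotated start site in 37.2% of shared regions by the Oct4BiD summit (36.6% to 37.8%) and 37.1% by the Sox2BiD summit, in 13.6% of the Oct4BiD only regions (13.4% to 13.9%) and in 11.7% of the Sox2BiD only regions (11.5% to 11.9%). Such windows make up 10.7% of the placed chromosomes. Among the top 20000 of each list the Oct4BiD only share was 21.9% and the Sox2BiD only share 12.7%. The gap between the 2 classes was thus 1.95 percentage points over all peaks (1.62 to 2.28) and 9.21 among the top peaks. The last top Oct4BiD peak had a score of 280 and the last top Sox2BiD peak one of 369. A lower peak of the other library lay under 29.4% of the top Oct4BiD peaks and 18.0% of the top Sox2BiD peaks. The top classes include these, so 9.21 is not a gap between sites of 1 library.

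**Figure D3:**
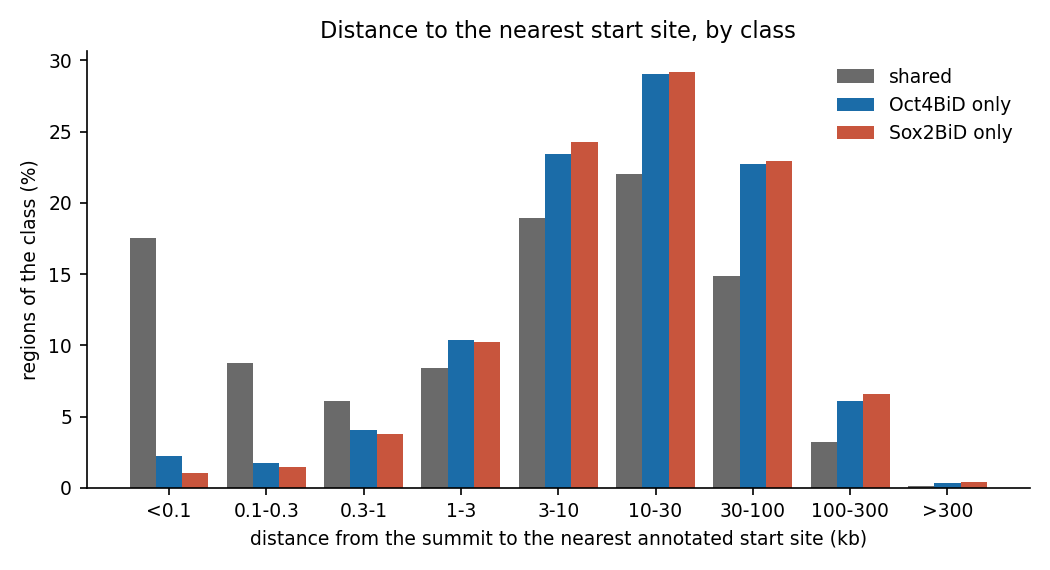
Percent of the regions of each class (vertical axis, bars from 0) by distance in kb from the summit to the nearest annotated start site; shared regions are measured from the Oct4BiD summit. The bar under 0.1 kb stands at 17.5% for shared regions, 2.26% for Oct4BiD only and 1.03% for Sox2BiD only.

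The excess at promoters was concentrated on the start site itself. Summits under 100 bp from a start site made up 17.5% of shared regions, 2.26% of Oct4BiD only and 1.03% of Sox2BiD only regions, while from 1 to 3 kb the shares were 8.38%, 10.4% and 10.2%. Seen from the peaks, 52.6% of the Oct4BiD promoter peaks and 48.5% of the Sox2BiD promoter peaks were shared, against 22.8% and 17.2% of the peaks farther away. With promoters counted apart, introns held 44.9% of all Oct4BiD only and 44.3% of all Sox2BiD only summits, and intergenic DNA held 38.9% and 41.3%.

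Shared regions at promoters were rich in GC, in CpG and in the elements common to promoters. Around the Oct4BiD summit, the window of 50 bases to either side in shared promoter regions had a mean GC content of 58.9% and 6.46 CpG, against 42.1% and 1.11 CpG in shared regions elsewhere, 39.5% and 0.831 in Oct4BiD only regions away from promoters and 42.0% and 0.772 in the Sox2BiD only regions there. The GC box GGGCGGGG of SP and KLF factors was at 14.2% of the shared promoter summits of Oct4BiD, 5.75 times the flanks, the ETS site CCGGAAGT at 2.34% (9.47 times) and the CRE site TGACGTCA of CREB and ATF factors at 1.09% (9 times). For scale, 17.6% of all RefSeq promoters of 300 bases hold this GC box, 3.89% the ETS site and 1.79% the CRE site. The octamer was at 3.39% of these summits, against 8.10% of the Oct4BiD summits of shared regions away from promoters.

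Oct4BiD only promoters differed from Sox2BiD only promoters in some of these elements. Their summits held the GC box in 3.33% against 1.11%, the ETS site in 0.835% against 0.129% and the octamer in 9.002% against 0.359%. The CRE site was at 0.220% and 0.230%, with overlapping intervals. AP-1 was at 2.28% of the Oct4BiD only and 8.67% of the Sox2BiD only promoter summits, and the SOX element at 0.187% and 3.68%. The promoter summits of the 2 classes also differed in composition, with a mean of 2.60 CpG within 50 bp in Oct4BiD only and 1.21 in Sox2BiD only. Summits within 500 bp of a start site made up 5.13% and 3.58% of all regions of these classes. Whether the element shares follow CpG content or distance to the start site was not tested.

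Summits of the 2 libraries often did not coincide inside shared regions. The median spacing was 161 bp over 26666 regions (156 to 167), with 39.1% of the pairs within 100 bp and 54.9% within 200 bp. At promoters the median was 88 bp and 36.0% lay within 50 bp, and where both summits were farther from start sites it was 212 bp and 19.1% lay within 50 bp. Among the top 20000 of each list the median was 187 bp. Over all peaks the median width was 806 bp in Oct4BiD and 814 bp in Sox2BiD. For the highest-scoring peaks of shared regions it was 983 and 975 bp. Peaks of a shared region overlap by construction, which limits how far apart their summits can lie.

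The spacing was widest where the elements were present. Shared regions with a POU element at the Oct4BiD summit and no SOX element at the Sox2BiD summit had a median spacing of 318 bp, those with a SOX element alone 358 bp, the 48 with both 404 bp, and those with neither 145 bp. Of the 48 regions with both elements, 6.25% had summits within 50 bp. Regions with an AP-1 element at either summit had a median of 156 bp. Promoters were 38.9% of the regions with neither element, against 19.9% with a POU element alone, 21.4% with a SOX element alone and 8.33% with both. Place and element are thus mixed in these medians. Where the Oct4BiD summit was away from promoters, the median was 203 bp with neither element. It was 326.5 bp there with a POU element and 343.5 bp with a SOX element.

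**Figure D4:**
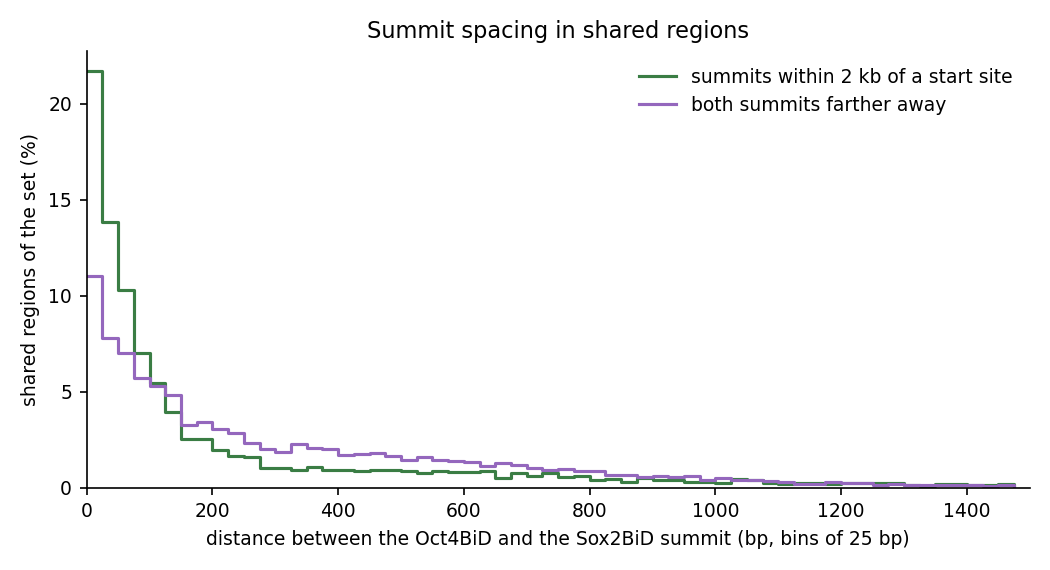
Percent of shared regions (vertical axis, from 0) by the distance in bp between the Oct4BiD and the Sox2BiD summit, in bins of 25 bp. Green is regions with both summits within 2 kb of a start site (median 88 bp) and purple those with both farther away (median 212 bp); both curves fall from the first bin.

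The classes were next looked up in the 6 lists that did not define them. Of the Oct4BiD only regions, 35.9% (35.6% to 36.3%) lay on a native Oct4 peak and 1.53% on a native Sox2 peak. Of the Sox2BiD only regions, 39.4% (39.1% to 39.7%) lay on a native Sox2 peak and 3.38% on a native Oct4 peak. The classes found between the fused factors thus recurred between the native factors in separate libraries, on the side of the same factor. Shared regions lay on native Oct4 peaks in 59.3% and on native Sox2 peaks in 49.1% of cases, and on both in 33.9%.

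The native lists are shorter, at 54794 and 58162 peaks, so weak regions of the fusions had fewer peaks to meet. Of the top Oct4BiD peaks with no Sox2BiD peak, 68.5% lay on a native Oct4 peak and 2.02% on a native Sox2 peak. Of those on a lower Sox2BiD peak, 86.6% and 46.4% did, and of those on a top Sox2BiD peak 90.1% and 90.6%. The top Sox2BiD peaks gave the same order, with 85.4% on native Sox2 and 5.17% on native Oct4 peaks where Oct4BiD had none. The share of regions found in both lists was 14.3% for the fused pair and 11.2% for the native pair, and 5.67% and 6.85% between top lists. Fused and native lists of the same factor shared 36.5% of regions for Oct4 and 38.7% for Sox2.

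Shared promoters recurred widely in the other lists. Of the shared regions at promoters, 83.9% lay on native Nanog, 86.8% on NanogBiD, 80.3% on native Nr5a2, 75.4% on Nr5a2BiD, 69.2% on native Oct4 and 43.7% on native Sox2 peaks. The order depended on the peaks taken, since for shared promoters of the top 20000 lists the shares were 95.6%, 96.4%, 90.8%, 90.8%, 97.7% and 93.8%. The 6 lists differ in length, so the shares do not rank the factors. NANOG is a homeodomain factor and NR5A2 an orphan nuclear receptor. Away from promoters the shares were 51.6% and 51.0% for the Nanog lists, 30.2% and 28.3% for the Nr5a2 lists, 53.5% for native Oct4 and 52.3% for native Sox2. In the Nanog and Nr5a2 lists the Oct4BiD only and Sox2BiD only regions stood between 8.79% and 28.9%, at promoters and elsewhere. A peak in all 6 other lists was found for 16.1% of shared, 0.0942% of Oct4BiD only and 0.376% of Sox2BiD only regions, and a peak in none of them for 8.99%, 48.5% and 41.7%. In shared regions the highest-scoring peaks had median widths of 983 bp (Oct4BiD) and 975 bp (Sox2BiD), and median scores of 181 and 185. For Oct4BiD only and Sox2BiD only regions the median widths were 757 and 779 bp, and the median scores 122 and 142. A shared region also spans a peak of each library. Whether the classes differ in recurrence at equal width and score was not tested. Shared regions with both native peaks and no peak in any Nanog or Nr5a2 list numbered 1178.

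**Figure D5:**
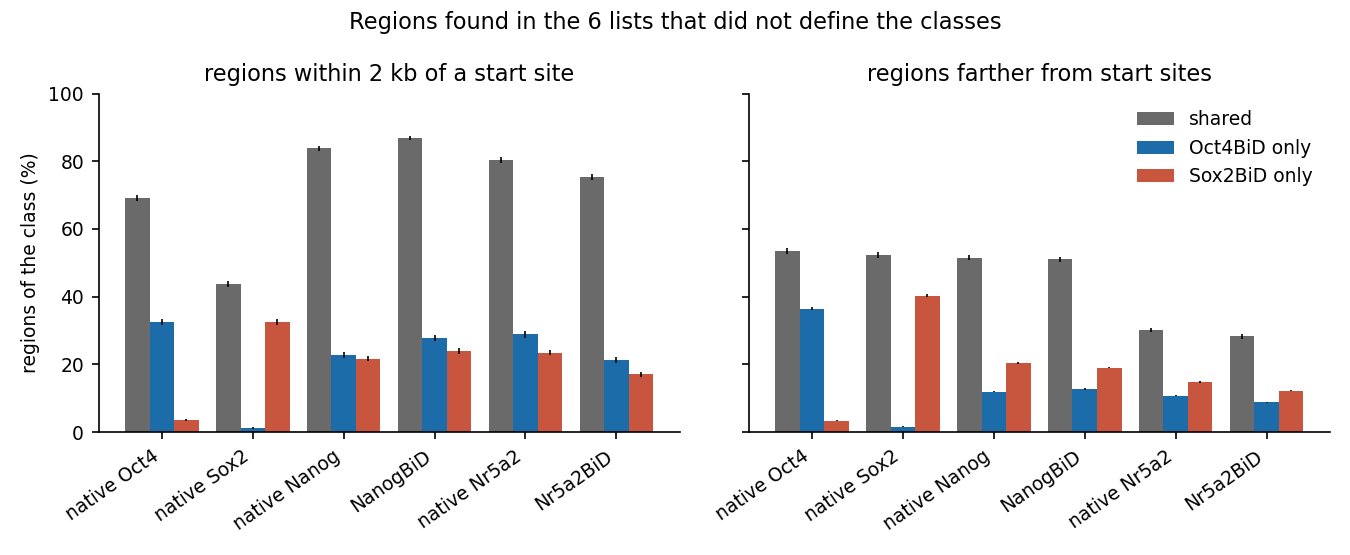
Percent of the regions of each class (vertical axis, bars from 0, 95% intervals for counting error) that lie on a peak of each of the 6 other lists, for regions within 2 kb of a start site (left) and farther away (right). Oct4BiD only regions reach 32.5% and 36.5% in native Oct4 but 1.13% and 1.60% in native Sox2, and grey bars of shared promoters exceed 75% in the Nanog and Nr5a2 lists.

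The highest-scoring regions of each class were mostly distal. By the worse of the 2 ranks, the first shared region was chr5:135148603-135150878, 0.224 kb from the start site of Tbl2, with scores of 1004 and 1049, 60 tags in both libraries and summits 111 bp apart, and all 6 other lists had a peak there. The next were on an exon of the noncoding gene Gm26917 (scores 849 and 987), near Gm17555 (802 and 966), in an intron of Galnt17, a mucin-type glycosyltransferase (859 and 918), and 748 kb from Mettl4 (902 and 909). Their summits lay 12, 55, 558 and 52 bp apart. Of these 5 shared regions, 3 had a peak in each of the 6 other lists. No regions prone to a pile-up of reads were removed here, so a peak in every list need not be a binding site.

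The strongest Oct4BiD only regions were those near Slc7a15 (score 1663, rank 3, 118 tags), Sox9 (1286, rank 12, 83 tags), Pdha2 (1251, 73 tags), Htr4 (1243, 87 tags) and Maml3 (1230, 126 tags). All 5 had a native Oct4 peak and none a native Sox2 peak. Pdha2 encodes the testis form of a pyruvate dehydrogenase subunit, Htr4 a serotonin receptor and Maml3 a coactivator of Notch. The strongest Sox2BiD only regions were near Adgrl4 (1538, rank 2, 108 tags), Zfp608 (1493, 87 tags), Fat4 (1465, 78 tags), Dars (1452, 94 tags) and Pja2 (1441). Fat4 is a giant protocadherin and Pja2 a ubiquitin ligase. All 5 had a native Sox2 peak, none a native Oct4 peak, and 3 of them a peak in the native Nanog list. Of the 10 regions, 8 were intergenic and those of Htr4 and Maml3 lay in introns of these genes.

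Genes were compared by the summits within 2 kb of their start sites and by the regions around them. Among 21938 protein-coding genes, a promoter summit of Oct4BiD alone was found at 10.6% and of Sox2BiD alone at 8.06%. Each region was assigned to the gene of the nearest protein-coding start site, and a gene was said to lean to a library when at least 3 regions of that library alone were assigned to it from within 100 kb and they were at least 3 times as many as those of the other. By this rule 811 genes (3.7%) leaned to Oct4BiD and 2315 (10.6%) to Sox2BiD. Among the top 20000 peaks of each list, which removes the difference in list length, 587 genes leaned to Oct4BiD and 598 to Sox2BiD.

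The genes with the largest excess of assigned regions were long. Toward Oct4BiD they were Enox1 (36 Oct4BiD only against 12 Sox2BiD only regions), Megf11 (23 against 4), Aff3 (29 against 14), Ankfn1 (30 against 16) and Slc24a3 (26 against 12). Enox1, a surface NADH oxidase, spans chr14:77156763-77721760, Aff3 is of a family of transcription elongation factors, and Slc24a3 is a sodium and calcium exchanger. Toward Sox2BiD they were Shroom3 (36 Sox2BiD only against 6 Oct4BiD only regions), Pde4d (93 against 63), Bach2 (47 against 17), Sox6 (41 against 13) and Dlg2 (46 against 19). Shroom3 drives apical constriction of epithelia, Pde4d is a cAMP phosphodiesterase, Bach2 a repressor of lymphocytes Sox6 a SOX factor of cartilage and neurons, and Dlg2 a scaffold of synapses. Megf11 and Shroom3 differed most in proportion.

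Genes known for OCT4-SOX2 elements had counts of regions close to those of all genes. Distances at named genes are from the nearest annotated start site of the gene, which need not be the first base of its span. Within 100 kb of the start sites of Pou5f1, Sox2, Nanog, Fgf4, Utf1, Fbxo15, Lefty1 and Zscan10 there were 24 shared, 46 Oct4BiD only and 66 Sox2BiD only regions. The median gene of these 8 had 3 shared, 5 Oct4BiD only and 8.5 Sox2BiD only regions, and the median over all genes was 3, 6 and 9. None of the 8 leaned to a library, where 3.7% of all genes leaned to Oct4BiD and 10.6% to Sox2BiD. Promoter summits of both were found at 3 of the 8, against 45.3% of all genes.

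Pou5f1 (chr17:35506018-35510772), the gene of OCT4, had no peak of either library over its body. The nearest Oct4BiD summit was 5.08 kb upstream, with a score of 76.4, and the nearest Sox2BiD summit 2.18 kb upstream, with a score of 85.0. A stronger Sox2BiD only region lay beyond the end of the gene, 5.45 kb downstream of its nearest annotated start site, with a score of 595 (rank 5865). The shared regions of the window were 57.8, 60.5 and 82.3 kb downstream, with summits 33, 47 and 41 bp apart.

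Sox2 (chr3:34650405-34652461) had a shared region at its start in which the summits were 1266 bp apart. The Oct4BiD summit was 0.502 kb upstream with a score of 164, and the Sox2BiD summit was 0.764 kb downstream with a score of 703 and 53 tags. The latter is in the single exon of Sox2, whose coding sequence the Sox2BiD vector also carries, and reads from the vector and the gene were not told apart here. The strongest region of the window was Sox2BiD only, 12.3 kb upstream, with a score of 822 (rank 1412). Oct4BiD had 4 regions of its own within 100 kb, the highest with a score of 189.

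Nanog (chr6:122707489-122714633), which encodes the homeodomain factor, had a shared region at its known upstream enhancer. The Oct4BiD summit was 5.28 kb upstream with a score of 285, and the Sox2BiD summit 3.95 kb upstream with a score of 721, so the pair was 1323 bp apart. The window held 11 Oct4BiD only and 8 Sox2BiD only regions besides. Among them an Oct4BiD only region lay 31.1 kb upstream (score 344), and Sox2BiD only regions lay 51.3 and 57.7 kb downstream (scores 647 and 590). Within the gene lay Oct4BiD summits 2.23 and 5.82 kb downstream of the start site, with scores of 169 and 164.

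Fgf4, a growth factor of the early embryo, had its nearest Sox2BiD summits 2.85 kb upstream and 3.08 kb downstream of start sites, with scores of 52.8 and 99.4, and its nearest Oct4BiD summit 44.3 kb downstream. Utf1, a chromatin protein of embryonic stem cells, had an Oct4BiD only region 12.5 kb upstream with a score of 458 (rank 6866), an Oct4BiD summit 2.54 kb upstream with a score of 71.1, and no Sox2BiD summit nearer than 6.22 kb. Lefty1, an antagonist of Nodal, had 6 shared, 7 Oct4BiD only and 14 Sox2BiD only regions. A pair of Lefty1 summits 35.9 kb upstream was 1 bp apart, with scores of 51.1 and 214. Zscan10, a zinc finger factor of pluripotent cells, had a shared promoter region with scores of 205 and 141 and summits 278 bp apart. At Fbxo15, an F-box gene of embryonic stem cells, the shared promoter region had scores of 428 and 277 and summits 38 bp apart. The Fbxo15 pair was thus closer than the promoter median of 88 bp, and the Zscan10 pair was not.

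Among 8 further genes that the study's text names, the libraries again differed from gene to gene. Esrrb, an orphan nuclear receptor of naive pluripotency, had 0 shared, 7 Oct4BiD only and 2 Sox2BiD only regions and leaned to Oct4BiD, yet its strongest region was Sox2BiD only, 99.3 kb upstream with a score of 692, against at most 263 for Oct4BiD. Dppa5a, an RNA-binding protein of stem cells, had 0 shared, 5 Oct4BiD only and 7 Sox2BiD only regions. Mir302a, of the miR-302 cluster, had 2 shared and 9 Oct4BiD only against 5 Sox2BiD only regions. The Mir302a shared region 7.56 kb downstream had scores of 312 for Oct4BiD and 229 for Sox2BiD.

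Sox15, a SOX factor of stem cells and muscle, was at the other end with 8 shared regions. In one of them, 22.5 kb upstream of Sox15, the summits were at the same base (0 bp apart), with scores of 446 and 509. Klf4, a zinc finger reprogramming factor, had a shared promoter region with scores of 214 and 252 and summits 6 bp apart. The Sall4 promoter, of a zinc finger factor of stem cells, had an Oct4BiD summit alone, with a score of 130, and the highest Sox2BiD only region of the window was 23.3 kb upstream (score 511). Foxb1, a forkhead factor of the brain, had 1 shared and 7 regions of each library alone. Olig3 had 1 shared, 6 Oct4BiD only and 4 Sox2BiD only regions, with the strongest, a Sox2BiD only region, 73.3 kb upstream (score 860). Over the 8 genes there were 19 shared, 54 Oct4BiD only and 49 Sox2BiD only regions. The median gene of these 8 had 1.5 shared, 7 Oct4BiD only and 6.5 Sox2BiD only regions, against 3, 6 and 9 over all genes. Of the 8, 1 leaned to Oct4BiD (Esrrb) and 0 to Sox2BiD, where 3.7% and 10.6% of all genes did. The rule for leaning covers protein-coding genes, so Mir302a was outside it.

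Other lists are given by their counts within 100 kb, against a background in which 61.9% of genes had more Sox2BiD only and 23.7% more Oct4BiD only regions. The members with the most regions serve as examples, and members named for a small count or an extreme value were chosen after their values were seen. Of 22 further pluripotency genes, 16 had more Sox2BiD only and 4 more Oct4BiD only regions, and 5 had a promoter summit of Oct4BiD alone, against 10.6% of all genes. Tet1, a DNA demethylation enzyme, had 17 Sox2BiD only and 9 Oct4BiD only regions, Klf5, a zinc finger factor, had 14 and 10, and Nodal, a ligand of the early embryo, had 10 of each. Gdf3, of the same ligand superfamily, had 10 Sox2BiD only and 12 Oct4BiD only regions, and it lies near Nanog and Dppa3, so the windows of these genes share regions. Dppa3, a maternal factor, and Nr5a2 were the 2 genes of this list that leaned to Oct4BiD, and 3 leaned to Sox2BiD. Of all genes, 3.7% leaned to Oct4BiD and 10.6% to Sox2BiD.

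The families of the factors themselves were set against the same background. Of 15 POU genes, 9 had more Sox2BiD only and 5 more Oct4BiD only regions. Pou2f3 had 15 Sox2BiD only and 11 Oct4BiD only regions, and Pou3f1 had 5 and 13. Pou2f1, the gene of the widespread octamer factor OCT1, had 14 and 10, with an Oct4BiD score of up to 1627. Of 19 SOX genes, 14 had more Sox2BiD only and 3 more Oct4BiD only regions. Sox6, Sox5 and Sox30 had 46, 38 and 12 Sox2BiD only against 18, 19 and 9 Oct4BiD only regions within 100 kb. Of the SOX genes, 6 leaned to Sox2BiD and 0 to Oct4BiD, where 10.6% and 3.7% of all genes did.

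Among 13 epithelial genes, 6 had a promoter summit of Sox2BiD alone, 0 of Oct4BiD alone and 1 of both, Grhl2, a regulator of epithelial identity. Over all genes 8.06% had one of Sox2BiD alone and 10.6% one of Oct4BiD alone. The 6 were Krt8, Cldn3, Cldn6, Esrp1, Dsp and Ovol1, which encode a keratin, 2 claudins of tight junctions, a splicing regulator, desmoplakin and a zinc finger factor. By regions within 100 kb, Cldn7 had 10 of each library alone, and Cldn3 16 of Sox2BiD and 11 of Oct4BiD. Of 14 mesenchymal transcription factors, 12 had promoter summits of both libraries, against 45.3% of all genes. Among them Tead1 had 26 Sox2BiD only and 15 Oct4BiD only regions, Runx2 14 and 18, Zeb1 23 and 14, and Zeb2 20 and 14. Of 17 BAF subunit genes, 16 had promoter summits of both, against the same 45.3%, and Smarcd3 had a Sox2BiD summit alone. Arid1b, of the subunits that define canonical BAF, had 16 Sox2BiD only and 15 Oct4BiD only regions.

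Of 16 neural genes, 3 had promoter summits of both libraries, 2 of Oct4BiD alone and 3 of Sox2BiD alone, where 45.3%, 10.6% and 8.06% of all genes did, and 12 had more Sox2BiD only regions. Cdh2, the neural cadherin, had 20 Sox2BiD only and 12 Oct4BiD only regions, Nes, an intermediate filament of neural progenitors, 12 and 5, and Lhx2, a LIM homeodomain factor, 12 and 10. Sox1, a neural SOX factor, had 7 Sox2BiD only regions, the highest with a score of 952, against 1 of Oct4BiD. Of 11 endoderm and trophoblast genes, 3 had promoter summits of both and 1 of Oct4BiD alone, Tfap2c, and 8 had more Sox2BiD only regions. Elf5, an ETS factor of trophoblast, had 15 Sox2BiD only and 12 Oct4BiD only regions, and Eomes, a T-box factor, 13 and 8.

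By chromosome the classes kept nearly the same shares. Shared regions made up from 12.9% on chromosome 14 to 16.9% on chromosome 11 among autosomes, and 10.7% on X. X also had the fewest regions per Mb of these, 33.4, and the highest share of Sox2BiD only regions, 55.01%. Chromosome Y held 17 regions.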

How the data were processed

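Flag CUT&Tag libraries of 100000 cells, per the labels, were analysed from the deposited peak and summit lists. Per the submitters' processing notes, the authors used Trim Galore 0.6.4, Bowtie2 2.4.5, SAMtools 1.16.1 and MACS 1.4.2 on mm10. The deposited score is the authors' 10 times −log10 of the MACS p-value, with a lowest value of 50, and the height at a summit, also deposited, is a signal that the authors gave in whole tags without scaling to depth. The study's methods speak of merged replicates, while its reporting summary gives a single experiment. Reads with a low mapping quality were removed by the authors, so repeats are under-represented.

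Peaks were ranked by score, merged at 1 bp and annotated with GENCODE M21 (promoter: summit within 2 kb of any start site). Elements were matched exactly on both strands within 50 bp of the summit and compared with windows 500 bp away. Sequences were drawn from all placed chromosomes but 18. Python 3.11.15 was used with pandas 2.3.3, SciPy 1.17.1, NumPy 2.4.6 and matplotlib 3.10.9, and the steps were tested on simulated data. Shares have exact Clopper-Pearson 95% intervals. Genes named were those of 2 short lists (OCT4-SOX2 elements, genes in the study's text), the nearest genes of the 5 highest regions per class, the 5 genes with the largest excess each way, and up to 4 members with the most regions per other list. An item that this rule would name is not reported here. Members and lists were chosen with earlier results of these data known.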

Additional observations from a re-analysis of the deposited data

How the results depend on the processing

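Of 37 recomputed values, 9 stayed within the interval of the reported value or within 1.5 times a reported count, and 28 moved beyond it, and the promoter gap and both log2 ratios kept their sign in each alternative. The cause was not tested beyond what each setting leaves in. The shared percentage was 5.67 between the top 20000 peaks of each list, 12.3 with a score of at least 100, 17.3 with gaps of up to 500 bp joined, 5.21 with summits within 100 bp and 8.90 with 0.5 of the length of both peaks overlapping. The promoter gap in percentage points was 1.55 within 500 bp, 9.21 in the top lists and 3.76 with a score of at least 100. In the last 2 settings, a region of 1 library can still hold a lower peak of the other. Median spacing was 153 bp for the nearest pair of summits and 187 bp in the top lists. The log2 octamer ratio was 4.49 within 25 bp and 3.84 within 100 bp, and that of SOX -3.29 within 100 bp. With the top lists, 74.5% of Oct4BiD only regions lay on native Oct4 and 16.6% on native Sox2, 86.3% of Sox2BiD only on native Sox2 and 14.1% on native Oct4, and 90.3% and 92.4% of shared regions on native Oct4 and native Sox2. Between summits within 100 bp these were 26.9%, 0.492%, 30.9%, 1.30%, 47.8% and 40.2%. With 5 regions and 5 times as many, 130 genes leaned to Oct4BiD and 631 to Sox2BiD. In the top lists 598 leaned to Sox2BiD and 587 to Oct4BiD, so the larger number for Sox2BiD was nearly gone. With 1 library a group, leaving out a replicate was not possible, and read depth, which was not used here, limits what a missing peak shows.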
